A study of Mus musculus with 5 samples.

Results

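The genes described here are the 6 cyclin-dependent kinase inhibitor genes Cdkn1a, Cdkn1b, Cdkn2a, Cdkn2b, Cdkn2c and Cdkn2d. They were chosen by symbol in the authors' gene and promoter tables and are set beside 21031 protein-coding genes. All 6 were found, with 8 transcript starts among the 13039 promoter regions of the authors' promoter tables. The data are chromatin immunoprecipitation sequencing (ChIP-seq) of mouse embryonic stem cells, 5 libraries, 1 per group. A first line is KAP1 fl/fl and a second Ring1b fl/fl, and each received ethanol (vehicle) or 4-hydroxytamoxifen, the drug used to delete its floxed gene. KAP1, the corepressor made by Trim28, was precipitated from both treatments of the KAP1 line. Ring1b, the ubiquitin ligase of Polycomb repressive complex 1 made by Rnf2, was precipitated from both treatments of the Ring1b line and from the drug-treated KAP1 line. The Cre driver is not stated, and peak lists hold no expression values, so neither the deletions nor the stem cell identity could be checked here. Vehicle or drug was given for 24 h, and a further 48 h of culture followed, with tamoxifen for the Ring1b fl/fl cells and without it for the KAP1 fl/fl cells. All cells grew on irradiated mouse embryonic fibroblasts, and a share of the chromatin from those feeders was not measured. KAP1 and Ring1b were mapped in different lines, so a peak of each at the same place does not put both on the same chromosome.

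Cyclin-dependent kinases drive the cell cycle, and these inhibitors hold them back. The INK4 proteins (from Cdkn2a, Cdkn2b, Cdkn2c and Cdkn2d) bind the kinases CDK4 and CDK6, while the Cip/Kip proteins (p21 from Cdkn1a, p27 from Cdkn1b) bind complexes of kinase and cyclin more broadly. Cdkn2a makes p16Ink4a and p19Arf from separate starts whose transcripts share later exons in different reading frames; p19Arf protects p53 from degradation, and p53 in turn activates Cdkn1a. The Cdkn2a and Cdkn2b locus is a classical target of Polycomb repression in dividing cells, and its release is a mark of senescence.

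The promoter sequences below are shown because the CG counts of the inhibitor starts, described further on, did not separate those with Ring1b from those without. The first 4 overlap Ring1b and KAP1 peaks, for Cdkn2b only in part and for Cdkn2c only in part with KAP1. The last 3 have KAP1 but no Ring1b peak at the start. Each is the RefSeq GRCm38.p6 sequence from 250 bases before to 50 bases after a start, 5′ to 3′ on the gene's strand, with CG dinucleotides in capitals; at the upstream start of Cdkn1a the capitals instead mark CATG followed, after 6 bases of any kind, by another CATG, the central letters of a full p53 site.
Cdkn2a, p19Arf start (chr4:89294570-89294869, minus strand): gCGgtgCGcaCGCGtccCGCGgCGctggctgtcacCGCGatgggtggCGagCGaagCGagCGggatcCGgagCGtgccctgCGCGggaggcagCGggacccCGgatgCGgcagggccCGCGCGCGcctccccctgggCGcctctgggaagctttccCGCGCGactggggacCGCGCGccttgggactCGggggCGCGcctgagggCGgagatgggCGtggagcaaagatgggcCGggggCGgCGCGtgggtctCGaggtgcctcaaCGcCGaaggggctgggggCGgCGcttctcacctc
Cdkn2a, p16Ink4a start (chr4:89282143-89282442, minus strand): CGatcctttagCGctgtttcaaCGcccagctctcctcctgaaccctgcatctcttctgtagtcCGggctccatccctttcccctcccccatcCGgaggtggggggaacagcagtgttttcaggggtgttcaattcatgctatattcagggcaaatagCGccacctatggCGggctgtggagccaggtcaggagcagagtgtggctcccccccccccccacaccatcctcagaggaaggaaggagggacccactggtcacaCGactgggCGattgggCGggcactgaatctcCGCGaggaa
Cdkn2b (chr4:89310983-89311282, minus strand): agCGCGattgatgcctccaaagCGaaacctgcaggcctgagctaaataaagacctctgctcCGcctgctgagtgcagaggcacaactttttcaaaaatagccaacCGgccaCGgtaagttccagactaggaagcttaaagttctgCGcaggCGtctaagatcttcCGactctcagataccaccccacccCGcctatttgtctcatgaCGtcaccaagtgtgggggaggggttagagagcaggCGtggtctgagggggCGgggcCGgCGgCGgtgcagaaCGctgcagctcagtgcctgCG
Cdkn2c, downstream start (chr4:109665323-109665622, minus strand): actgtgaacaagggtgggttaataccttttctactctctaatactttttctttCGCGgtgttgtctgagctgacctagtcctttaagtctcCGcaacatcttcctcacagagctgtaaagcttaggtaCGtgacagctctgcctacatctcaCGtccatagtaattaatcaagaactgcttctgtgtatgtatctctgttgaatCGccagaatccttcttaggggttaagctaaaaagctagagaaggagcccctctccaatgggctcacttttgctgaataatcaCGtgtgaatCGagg
Cdkn2d (chr9:21291160-21291459, minus strand): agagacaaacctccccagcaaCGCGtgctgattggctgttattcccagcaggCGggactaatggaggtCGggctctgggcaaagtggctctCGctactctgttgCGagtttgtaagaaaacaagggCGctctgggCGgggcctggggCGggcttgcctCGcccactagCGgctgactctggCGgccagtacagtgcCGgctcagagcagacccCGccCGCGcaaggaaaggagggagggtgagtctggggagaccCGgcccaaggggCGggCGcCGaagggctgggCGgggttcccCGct
Cdkn1a, downstream start (chr17:29093519-29093818, plus strand): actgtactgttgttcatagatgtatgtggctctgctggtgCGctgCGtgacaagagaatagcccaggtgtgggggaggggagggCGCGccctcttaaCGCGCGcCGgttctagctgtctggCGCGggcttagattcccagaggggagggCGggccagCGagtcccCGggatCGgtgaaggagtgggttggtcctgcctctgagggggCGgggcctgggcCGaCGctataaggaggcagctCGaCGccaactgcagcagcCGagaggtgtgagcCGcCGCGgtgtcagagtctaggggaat
Cdkn1a, upstream start (chr17:29090729-29091028, plus strand): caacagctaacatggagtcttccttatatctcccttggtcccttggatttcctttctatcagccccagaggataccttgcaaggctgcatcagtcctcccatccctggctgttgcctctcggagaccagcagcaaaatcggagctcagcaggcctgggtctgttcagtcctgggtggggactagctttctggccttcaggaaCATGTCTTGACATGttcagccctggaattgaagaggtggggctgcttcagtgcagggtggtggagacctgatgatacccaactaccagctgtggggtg

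At promoters, defined by the authors' window of 1 kb on each side of a start, KAP1 lay at all 6 inhibitor genes and Ring1b at 4 of them. Cdkn1b, Cdkn2a, Cdkn2b and Cdkn2c had both proteins, and Cdkn1a and Cdkn2d had KAP1 alone. Among all 21031 genes the tables put KAP1 at a promoter of 53.0%, Ring1b at 27.0%, both at 23.3% and KAP1 without Ring1b at 29.7%. A gene counts as having both if each protein has a peak at any of its promoters. The tables list only genes with a region of either protein, and all 6 inhibitor genes have a row, so high counts follow in part from the choice. Among genes with a promoter row the shares were 93.4% for KAP1, 47.6% for Ring1b and 41.0% for both. With 1 library per group and 6 genes, none of these counts was tested. Inside the gene, end to end, a KAP1 peak was present in 6 of 6 (69.6% of all genes) and a Ring1b peak in the same 4 genes (33.9% of all genes). The strength of a peak is given by its score, 10 times the authors' -log10 p for that library against its control, which ranks peaks within 1 list only. The KAP1 list held 82775 peaks with a median score of 96.2, and the Ring1b list 13516 peaks with a median of 116; both start at 50.0. The read depth behind each list is unknown.

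**Figure D1:**
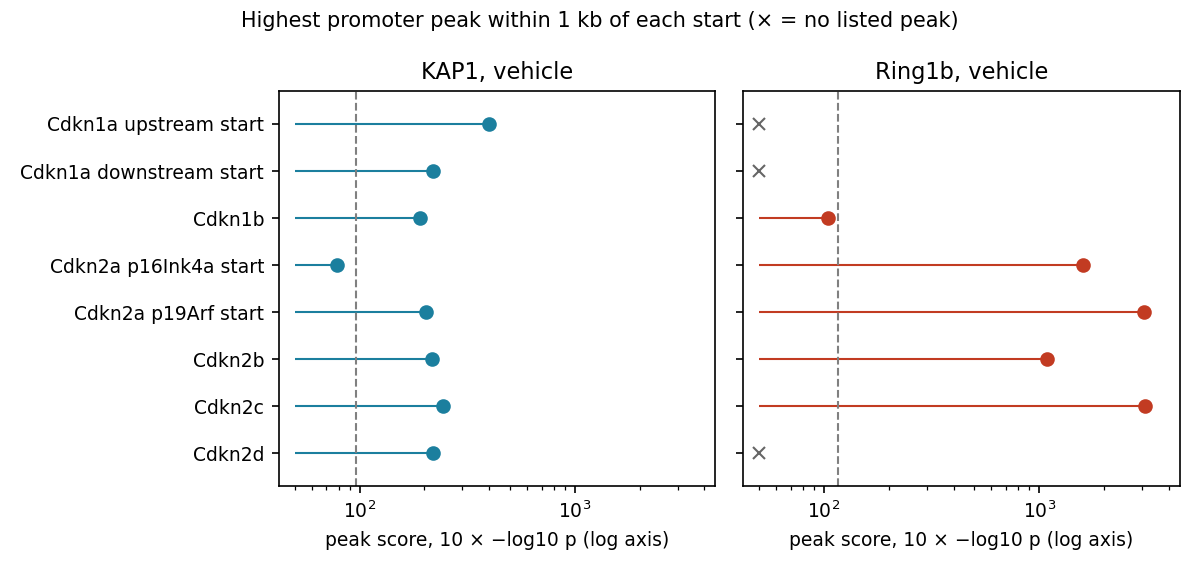
Score of the highest KAP1 peak (left) and Ring1b peak (right) of the vehicle lists within 1 kb of each of the 8 deposited starts, on a log axis; the dashed line is the median of that list and a cross marks a start with no listed peak. KAP1 scores lie between 78.4 and 398, while Ring1b scores run from 104 at Cdkn1b to 3100 at Cdkn2c and are missing at Cdkn1a and Cdkn2d.

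The order of the genes differed between the proteins. By the highest KAP1 promoter score, Cdkn1a came first with 398, followed by Cdkn2c with 244, Cdkn2d with 219, Cdkn2b with 217, Cdkn2a with 204 and Cdkn1b with 190. The KAP1 score of Cdkn1a was reached by 4.65% of the 11150 genes with a KAP1 promoter peak; the other 5 genes lay close together, above the median of 147 over those genes. By Ring1b, Cdkn2c came first with 3100, then Cdkn2a with 3061, Cdkn2b with 1091 and Cdkn1b with 104, against a median of 237 over the 5681 genes with a Ring1b promoter peak. A score of 3100 is shared by 732 peaks of the Ring1b list, so Cdkn2c has no rank of its own among them. Whether neighbours in either order differ beyond replicate error cannot be said from 1 library.

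Cdkn2a (chromosome 4, 89274473 to 89294619, minus strand, 20147 bp) held 4 Ring1b peaks, all between the percentiles 88.6 and 94.2 of scores in the Ring1b list. The peak over the p19Arf start ran from 89293511 to 89296251 (2741 bp, score 3061) and filled the whole promoter window. The peak over the p16Ink4a start, 89281138 to 89283330, had a score of 1592 and also filled its window. The other 2 lay toward the 3′ end, from 89272905 to 89275566 (score 1519) and from 89275650 to 89277336 (score 1615), and the first of them ran past the last base of the gene. Together the 4 covered 30.2% of the gene, as much as in 3.00% of all genes, and 278 genes had 4 or more Ring1b peaks. The KAP1 peaks were narrower than the Ring1b peaks around them. KAP1 had 204 at the p19Arf start (89294397 to 89295485), 78.4 at the p16Ink4a start (89282008 to 89282474) and 51.1 inside the gene (89276637 to 89277034). The first lay at the percentile 85.0 of the KAP1 list, and the last 2 lay below its median. All 3 KAP1 peaks fell within Ring1b peaks.

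Cdkn2b, which encodes p15Ink4b (chromosome 4, 89306289 to 89311032, minus strand, 4744 bp), held 5 Ring1b peaks that covered 61.3% of the gene. As much cover was seen in 1.58% of all genes, and as many Ring1b peaks in 0.66%. Cover is a share of gene length, so 1 promoter peak can fill much of a short gene. The promoter peak, 89309758 to 89311138, had a score of 1091 (percentile 85.9 of its list), and the 4 peaks further inside the gene had scores of 99.1, 63.5, 107 and 244. KAP1 had a promoter peak of 217 (89310431 to 89311239, percentile 86.8 of its list), its summit 54 bp from that of Ring1b, and a second peak of 56.5 (89306962 to 89307375) inside the innermost Ring1b peak. At shared promoters in general the 2 summits were a median of 235 bp apart (quartiles 50.0 and 624.5 bp, n = 5235).

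Across both genes and the space between them (89274473 to 89311032, 36560 bp), the Ring1b list had 11 peaks that covered 31.8% and the KAP1 list had 6 peaks that covered 8.96%. All 6 KAP1 peaks met a Ring1b peak, against 13.7% of KAP1 peaks in the whole list. That list also holds peaks away from promoters and from Ring1b-rich spans such as this chosen one, so the 2 shares are not like for like. Between the genes (89294620 to 89306288) lay 2 separate Ring1b peaks of 135 and 63.5 and a KAP1 peak of 55.8, besides the upstream part of the p19Arf peaks. Outside the pair the next Ring1b peaks were 136516 bp away on the Mtap side and 213510 bp away on the Dmrta1 side. KAP1 had a peak of 89.7 at 2501 bp beyond Cdkn2b, which met no Ring1b peak, and none for 128719 bp on the other side. The nearest protein-coding genes are Mtap, a methionine salvage enzyme, 93382 bp away, whose promoter had Ring1b alone with a score of 98.7, and Dmrta1, 377165 bp away, with both proteins (Ring1b 700.1, KAP1 104).

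**Figure D2:**
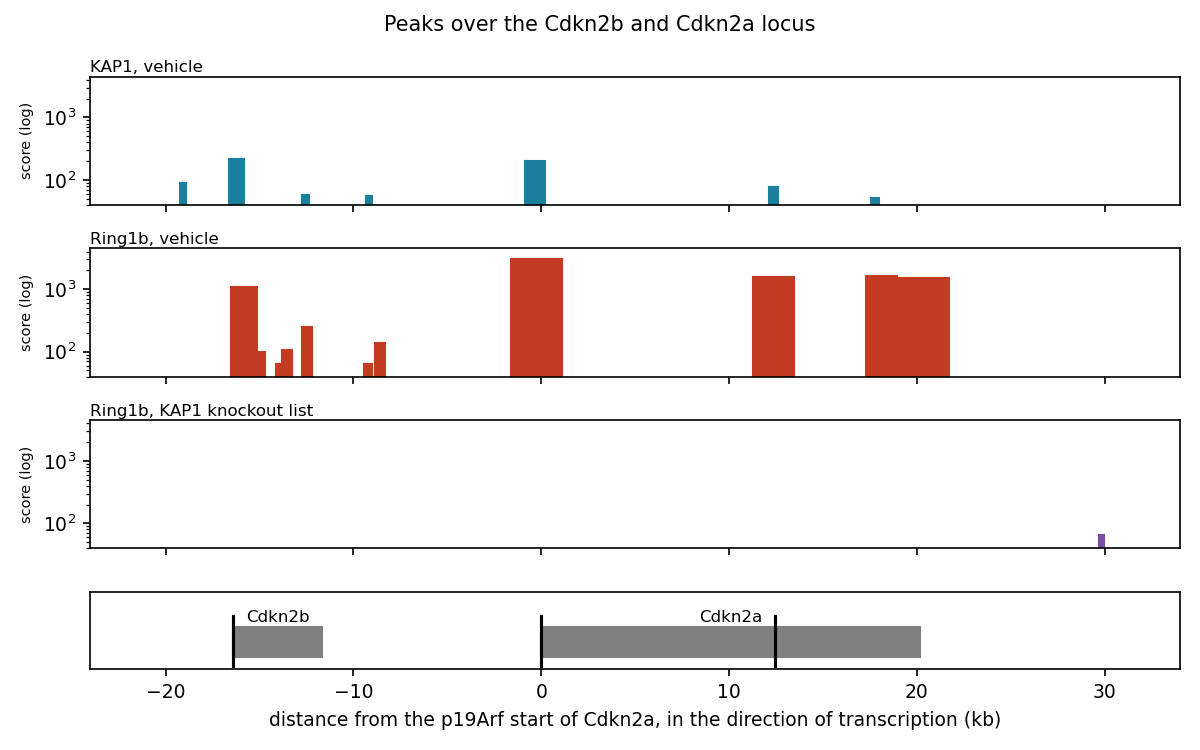
Peaks of the 3 lists over Cdkn2b and Cdkn2a by distance from the p19Arf start in the direction of transcription; bars have the width of the peak and the height of its score on a log axis, and black lines in the lowest panel are the deposited starts. Ring1b bars stand at all 3 starts and toward the 3′ end of Cdkn2a with scores over 1000, KAP1 bars stand at the same 3 starts and reach 217 on the scale of their own list, and the knockout list has 1 peak, 9577 bp past the end of Cdkn2a.

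Cdkn2c, which encodes p18Ink4c (chromosome 4, 109660876 to 109666756, minus strand), had a single wide Ring1b peak, 109664041 to 109667441 (3401 bp), with the score of 3100. It covered 46.2% of this gene of 5881 bp, as much as in 2.09% of genes, while 33.9% of genes held at least 1 Ring1b peak. The peak took in both RefSeq starts, at 109665372 and 109666756. Only the first of these has a window in the authors' tables. KAP1 had 2 peaks inside that Ring1b peak, of 244 (109665598 to 109667327) and 72.8 (109665040 to 109665436). The summits of the stronger KAP1 peak and of Ring1b were 29 bp apart. A second Ring1b peak of 3100 (109656220 to 109659410) lay 1465 bp past the 3′ end, with a KAP1 peak of 129 inside it.

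Cdkn2d, which encodes p19Ink4d (chromosome 9, 21288459 to 21291421, minus strand), was the INK4 gene without Ring1b. Its promoter had a KAP1 peak of 219 (21290655 to 21292071, 1417 bp), in the middle of the range of the other inhibitor genes. The nearest Ring1b peaks lay 20662 bp upstream (score 69.8) and 39719 bp downstream (score 56.8). Further out but within 50 kb were Ring1b peaks of 1890 at 42761 bp downstream and of 98.1 at 46208 bp upstream. A further KAP1 peak of 70.5 began 92 bp beyond the 3′ end and overlapped the start of the neighbouring gene Kri1 (21273457 to 21287969, minus strand).

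Cdkn1a (chromosome 17, 29090979 to 29100722, plus strand) had the most KAP1 peaks of the 6 genes and the highest single KAP1 score inside a gene. It had no Ring1b peak in the gene or at a promoter. The gene held 5 KAP1 peaks, as many as in 12.8% of genes. They covered 30.3% of its 9744 bp, as much as in 4.16% of genes. At the upstream start the peak ran from 29090690 to 29091297 with a score of 398, and its summit lay 5 bp from the deposited start. At the downstream start the peak was 29093378 to 29094139 with a score of 220. The other 3, further into the gene, had scores of 63.0, 124 and 146. Within 50 kb on either side and in the gene there were 25 KAP1 peaks, a number reached by 5.11% of genes. The single Ring1b peak in that span (29080847 to 29082596, score 335) lay 8382 bp upstream of the gene and met KAP1.

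Cdkn1b (chromosome 6, 134920401 to 134925525, plus strand) had both proteins at its promoter. For each protein its highest promoter score was the lowest among the inhibitor genes with such a peak. The KAP1 peak ran from 134919661 to 134920889 (score 190) and the stronger promoter Ring1b peak from 134920187 to 134921033 (score 104). Their summits were 13 bp apart, which is as close as in 8.65% of shared promoters. The Ring1b score lay below the median of its list, so Cdkn1b is the gene whose Ring1b call ends when the lower 50% of scores is left out, giving 3 of 6 genes. A smaller Ring1b peak inside the gene had 55.7. Flanking Ring1b peaks were stronger than the promoter peak on both sides: 179 at 3113 bp upstream and 293 at 1071 bp downstream.

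**Figure D3:**
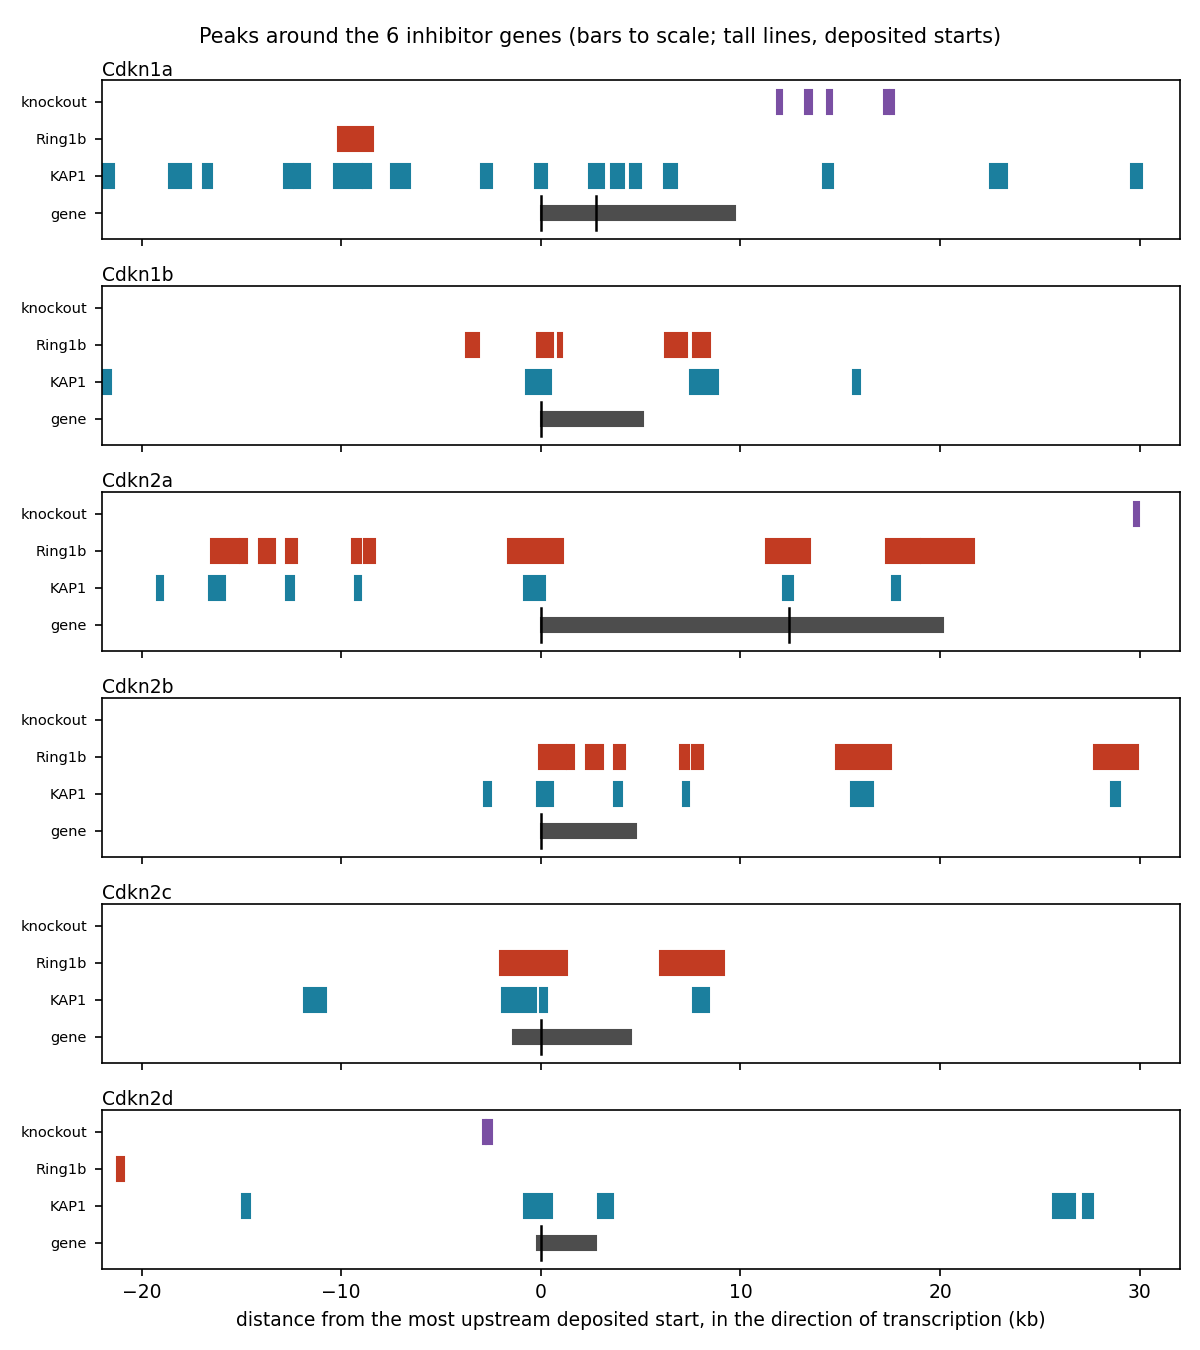
Maps of the 6 genes in the direction of transcription, by distance from the most upstream deposited start; coloured bars are peaks of the vehicle KAP1, vehicle Ring1b and knockout lists drawn to scale, grey bars are genes, black lines are deposited starts, and neighbouring peaks can merge at this scale. Ring1b bars cover the starts of Cdkn1b, Cdkn2a, Cdkn2b and Cdkn2c and are missing from the starts of Cdkn1a and Cdkn2d, where KAP1 bars are present.

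The promoter sequences were then set beside the peaks, since Polycomb proteins in embryonic stem cells are known to favour CG-rich promoters. Over 20488 RefSeq starts of protein-coding genes, the median number of CG dinucleotides per 300 bases was 3 where neither protein had a peak within 1 kb, 20 with KAP1 only, 23 with both and 19 with Ring1b only. Among these starts 59.0% had KAP1 within 1 kb and 27.4% Ring1b; 23.7% had both, 35.3% KAP1 only and 3.75% Ring1b only. Of the 9 inhibitor starts, 6 had both and 3 had KAP1 only, and their CG counts spread widely. The p19Arf start had 45 CG, a number reached by 2.54% of starts, and 77.0% G and C. The p16Ink4a start had 12, Cdkn2b 18, Cdkn1b 30 and the starts of Cdkn2c 33 (upstream) and 8 (downstream). Without Ring1b, Cdkn2d had 22, the downstream start of Cdkn1a 23 and the upstream start 2. Of starts within 3 CG of Cdkn2d, 39.0% had Ring1b, and of those within 3 CG of the upstream Cdkn1a start, 4.12%. So Cdkn2d had no Ring1b peak at a CG count above that of Cdkn2b, which did.

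**Figure D4:**
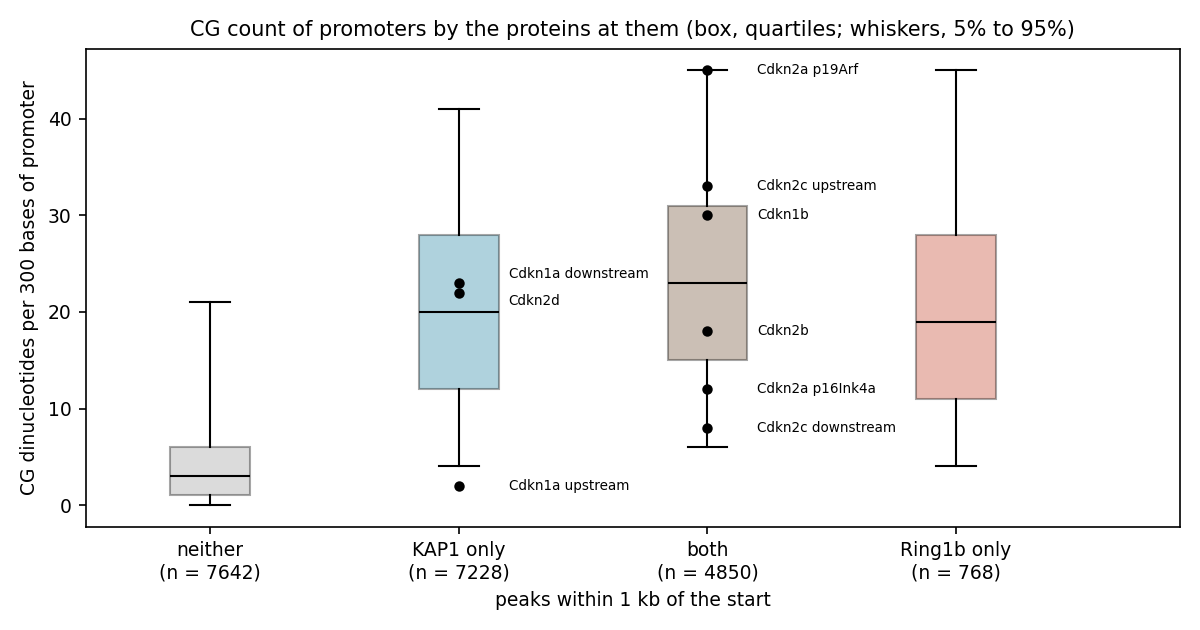
CG dinucleotides in 300 bases of promoter for 20488 RefSeq starts, grouped by the peaks within 1 kb; boxes are quartiles with the median as a line, whiskers span 5% to 95% of starts, and points are the 9 starts of the inhibitor genes. The points with both proteins run from 8 to 45, and Cdkn2d and the downstream start of Cdkn1a lie inside the box for KAP1 only.

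The letters GGGCGG, a box bound by Sp1, were counted on both strands with overlaps allowed, and occurred in 47.1% of all promoters of this length. By class the share was 62.8% with KAP1 only, 70.7% with both proteins and 15.8% with neither. Among the 9 inhibitor starts, which all had KAP1, the letters were found at 7, most often at Cdkn2d with 5 matches. The E box CACGTG, present in 13.1% of promoters, was found at the downstream start of Cdkn2c only. The spaced pair of CATG, a pattern that is the same on both strands, was added after the sequences were seen. It occurred in 0.708% of promoters, 145 in all. The share was 1.52% with neither protein within 1 kb, 0.208% with KAP1 only and 0.247% with both. Among the inhibitor genes the pair was found only at the upstream start of Cdkn1a, as CATGTCTTGACATG (chromosome 17, 29090931 to 29090944). That run ends 37 bp before the summit of the KAP1 peak there. A match describes the letters and does not show a bound site.

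The last list asked where Ring1b was called in cells given the drug to delete KAP1, a deletion that could not be checked here. It was called in KAP1 fl/fl cells given tamoxifen against Ring1b fl/fl cells given tamoxifen, a different line, and is called the knockout list here. None of the 6 inhibitor genes had a knockout-list peak in the gene or at a promoter. Such a peak was present inside 14.3% of all genes and at a deposited promoter of 1.88%, so 0 of 6 is near that background. The Ring1b peaks of 3061, 1592 and 1091 at Cdkn2a and Cdkn2b and of 3100 at Cdkn2c thus had no counterpart in that list, and only 0.493% of knockout-list peaks met any vehicle Ring1b peak. The vehicle and knockout lists differ in line, in drug, in KAP1 and in the precipitated library, whose depth is unknown, and these cannot be told apart. By medians, a knockout-list peak scored 58.9, near the lowest listed score of 50.0, and spanned 158 bp. For a vehicle Ring1b peak the same medians were 116 and 587 bp. Whether the missing counterparts reflect less Ring1b or a weaker library was not tested.

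Around Cdkn1a the knockout list had a run of 5 peaks, 169 to 338 bp wide, all wider than the median of that list. There were 6 within 50 kb, a number reached by 55 genes (0.26%), and 5 of them lay between 2094 and 7769 bp past the 3′ end, from 29102817 to 29108660. Their scores were 65.8, 83.1, 115, 83.8 and 53.6, beside a list median of 58.9 and a median width of 158 bp. The strongest (29105337 to 29105574) met a KAP1 peak of 71.0. Cdkn2d had 2 knockout-list peaks close together at 2241 and 2550 bp upstream, of 90.2 and 62.3, and 1 more at 39158 bp. The other genes had 1 each, between 9577 and 42547 bp away, with the same peak counted for Cdkn2a and Cdkn2b. All 6 genes thus had a peak within 50 kb, as did 44.4% of genes. Of the 12 distinct knockout-list peaks near these genes, 0 met a vehicle Ring1b peak and 2 met KAP1 (16.7%), close to the 13.6% of the whole knockout list that met KAP1.

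Genes with the most similar promoter pattern were found by distance over 4 measures, the within-list percentiles of score and width of the highest KAP1 and Ring1b promoter peaks, among 4896 genes with both. Nearest to Cdkn2a were Ppm1h (KAP1 197, Ring1b 2957) and Ism1 (215 and 2781). Nearest to Cdkn2c were Bhlhe22 (247 and 3100) and Kcnc4 (237 and 3100). Nearest to Cdkn2b were Phldb2 and Ddx4, with Ring1b scores of 986 and 951. Nearest to Cdkn1b were Abcb6 and Mras, with Ring1b scores of 109 and 104. The distances were 1.06 to 2.47 percentile points for Cdkn2c and Cdkn2a and 4.78 to 5.44 for the other pair.

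The partners of the inhibitors were described from 4 lists of cell-cycle genes. A gene with both proteins has each at any of its promoters, so the peaks need not overlap. The highest peaks of the 2 proteins did not overlap at some genes, among them E2f8 and Trp73. At Trp73 they lay at 154096905 to 154097711 (KAP1) and 154138893 to 154142528 (Ring1b). Of 13 cyclins and kinases, 4 had both proteins at a promoter (30.8%) and 8 had KAP1 alone (61.5%). Over all genes these shares were 23.3% and 29.7%, and among genes with a promoter row 41.0% had both. None of the list counts was tested. Cdk6, a direct target of the INK4 proteins, had Ring1b with the score of 3100 and KAP1 with 299, while its sister kinase Cdk4 had KAP1 alone with 276; Cdk4 was singled out after its value was seen. The cyclins Ccnd1, Ccna1 and Ccne2 had Ring1b scores of 648, 495 and 91.3. Ccnd3 had the highest KAP1 score of the list, 434, without Ring1b at the promoter.

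The RB and E2F network is the transcriptional switch that CDK4 and CDK6 control. Of its 13 genes, 7 had both proteins (53.8%, against 23.3% of all genes and 41.0% of those with a promoter row). A further 5 had KAP1 alone (38.5%, against 29.7% of all genes). The highest Ring1b scores were at E2f8 (752) and E2f6 (620), followed by E2f7 (164) and E2f5 (121). The highest KAP1 scores were at Rbl1 (253) and Tfdp2 (231), neither with Ring1b at the promoter; the other genes with KAP1 alone were Rbl2, E2f1 and E2f3.

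Of 16 regulators of the inhibitors, 6 had both proteins (37.5%, against 23.3% of all genes and 41.0% of those with a promoter row). Another 7 had KAP1 alone (43.8%, against 29.7% of all genes). Bmi1, a Polycomb subunit that represses Cdkn2a, and Trp73, a relative of p53, had Ring1b scores of 3100. Myc, which represses Cdkn2b and Cdkn1a, had 1168, and Smad3, which activates Cdkn2b in response to TGF-beta, had 1145. Mdm4 and Cbx7, an inhibitor of p53 and a Polycomb subunit, had the highest KAP1 scores of this list, 390 and 369, without Ring1b at the promoter. Of 2 other genes named Cdkn, the imprinted inhibitor Cdkn1c had Ring1b with 3100 and KAP1 with 84.5, and Cdkn3, a phosphatase, had no row. No gene of these lists was in the Ring1b only class, which holds 3.73% of all genes.

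A gene without a row in the promoter tables is not shown to lack the proteins. Over all genes 9096 had no such row, and 24.1% of them had a KAP1 peak within 1 kb of an end of the RefSeq gene and 8.16% a Ring1b peak. In the 4 lists these were Ccnd2, E2f4, Trp53, Trp63, Tbx2 and Cdkn3, named for this reason and not by the rule. Ccnd2 and Tbx2 each had a Ring1b peak of 3100 at an end, and Trp53 a KAP1 peak of 227. All 6 inhibitor genes have rows in the promoter tables.

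**Figure D5:**
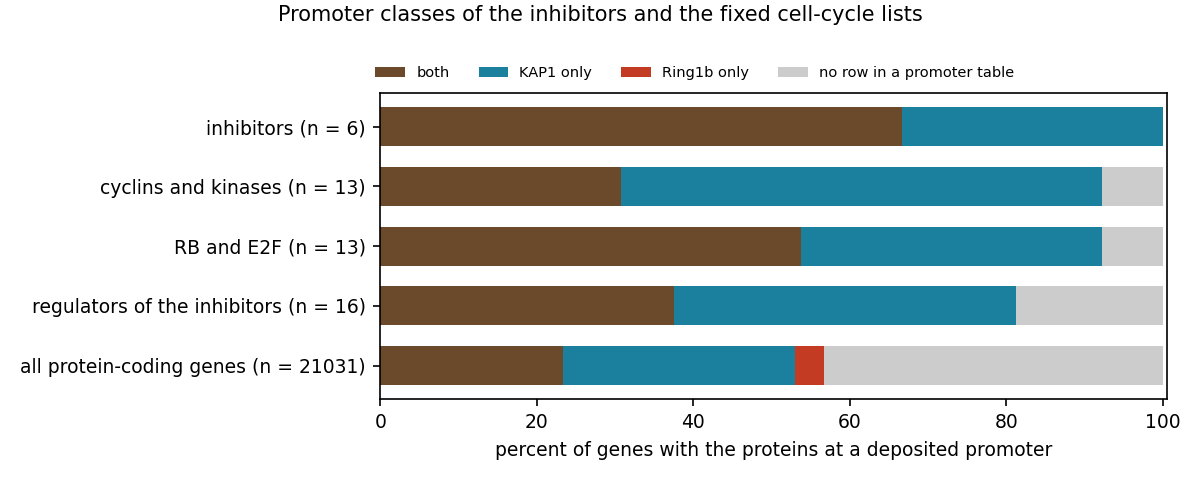
Share of genes by the proteins at a deposited promoter, for the inhibitor genes, 3 fixed cell-cycle lists and all protein-coding genes, as stacked bars that add up to 100.0%. Both proteins are at 66.7% of the inhibitor genes, 53.8% of the RB and E2F genes, 37.5% of the regulators, 30.8% of the cyclins and kinases and 23.3% of all genes.

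The authors' promoter tables give somewhat different KAP1 values from the peak list. In the authors' deposited tables, all 5 Ring1b regions at the inhibitor starts had the borders of a listed peak, but only 2 of 8 KAP1 regions did, although all 8 summits were the same. The KAP1 score at the p19Arf start was 119 in the authors' deposited table and 204 in the list, and at Cdkn1b 117 and 190. By these values of the authors' deposited table the order of the genes is that of the list, except that Cdkn2b with 195 comes before Cdkn2d with 190. The whole-gene entries of the authors' deposited table have the listed KAP1 scores of the promoter peaks for Cdkn1a, Cdkn1b, Cdkn2a and Cdkn2b, and for Cdkn2c that of its smaller peak, 73. Gene spans in the authors' whole-gene tables begin 1 kb below the lowest RefSeq coordinate for 56.7% of plus-strand and 80.5% of minus-strand genes. This holds for Cdkn2a, Cdkn2b and Cdkn2c, on the minus strand, whose spans there extend past the 3′ end. Those tables put Cdkn1b, Cdkn2a, Cdkn2b and Cdkn2c with both proteins and Cdkn1a with KAP1 alone, and hold no row for Cdkn2d in the form used here. Over all genes they put 27.3% with both, 28.6% with KAP1 alone and 1.99% with Ring1b alone.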

How the data were processed

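ChIP-seq peak lists of KAP1 and Ring1b from 5 libraries were analysed. The submitters' processing notes name mm10 (GRCm38) as the build, with MACS 1.4.2, Bowtie2, bedtools 2.16.2 and CASAVA 1.8.2 as software. The score in the 3 lists and 6 gene tables is 10 times the -log10 p of MACS that the authors deposited, per the file headers; each list was called on 1 library against another. Positions were converted to 1-based. Overlap meant at least 1 bp. Of 13039 promoter regions, 12939 matched GRCm38.p6 RefSeq by accession, and the rest were matched by symbol. Gene spans, strands and promoter sequences came from RefSeq; all 6 genes had a sequence, for 9 starts. Python 3.11.15 and pandas 2.3.3 were used, and the overlap code was tested on simulated data. No group has replicates, so nothing was tested between conditions and intervals between libraries are not given.

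The members and lists were chosen with earlier results of these data known. Named were all members, in each list the 4 genes with the highest Ring1b and the 2 with the highest KAP1 promoter score, any Ring1b only gene, the neighbours of the Cdkn2a and Cdkn2b locus, and the 2 genes nearest in pattern to each member with both proteins.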

Additional observations from a re-analysis of the deposited data

How the results depend on the processing

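KAP1 stayed at a promoter of all 6 inhibitor genes with a window of 5 kb, with 50% of the peak required inside the window and with the upper 50% of scores, and the whole-gene tables held 5. Ring1b, and both proteins, stayed at 4 with the wider window, the stricter overlap and whole-gene tables, and at 3 with the upper 50% of scores. Counting knockout-list peaks within 50 kb in place of the gene and promoter raised the genes from 0 to 6, through the larger span. With only genes that have a promoter row as background, the shares of all genes rose to 93.4% for KAP1, 47.6% for Ring1b and 41.0% for both. With the upper 50% of scores the shares were 39.6% for KAP1, 17.9% for Ring1b and 11.4% for both. RefSeq starts in place of deposited promoters, chosen after seeing the data, gave 59.0%, 27.4% and 23.7%. The counts of the 4 cell-cycle lists stayed within 1.5 times under whole-gene classes. No paired analysis was possible because each group has 1 library. Read depth is not given, so weak peaks cannot be told from the limit of detection.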

Other observations

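Noncoding genes beside the inhibitors carried peaks as well. Trp53cor1, the long noncoding RNA known as lincRNA-p21 (chromosome 17, 29057474 to 29079126), lies upstream of Cdkn1a. Its end nearer to Cdkn1a had a KAP1 peak of 443 (29078616 to 29079409), higher than the 398 at the Cdkn1a start, and its other end overlapped a KAP1 peak of 93.4 (29057414 to 29058071). Beyond the 3′ end of Cdkn1b, the start of the noncoding gene Lockd (chromosome 6, 134929092 to 134951718, plus strand) had a KAP1 peak of 80.2 (134927879 to 134929261), which met a Ring1b peak of 91.5. The noncoding gene Gm12610 (chromosome 4, 89295180 to 89518621, plus strand) begins within the KAP1 and Ring1b peaks of the p19Arf start and runs opposite to Cdkn2a, so those peaks cannot be assigned to 1 of the starts. The Ring1b peak of 3100 beyond Cdkn2c overlapped the noncoding gene 9630013D21Rik (chromosome 4, 109652427 to 109657588, minus strand), with its summit at 109657148 inside that gene.

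Over all 6 genes and 50 kb on each side, 14 of 23 Ring1b peaks met KAP1 (60.9%), against 76.6% in the whole list, and 16 of 63 KAP1 peaks met Ring1b (25.4%), against 13.7%. These shares were not tested.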
